A study of Mus musculus with 12 samples.

Results

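The genes described here are the nuclear genes for subunits of the mitochondrial respiratory chain and the ATP synthase, followed in mouse lung adenocarcinoma cells with a BACH1 knockout, a FEM1B knockdown, the combination or no change. They were taken by symbol: Nduf followed by a, b, c, s or v and a digit, the 4 Sdh genes, Uqcr, Cox4 to Cox8, and Atp5. Of 24421 gene symbols in the count table, 84 matched, and 77 of them reached at least 10 counts in at least 3 of the 12 libraries. These 77 members comprised 36 genes of complex I, 4 of complex II, 8 of complex III, 12 of complex IV and 17 of complex V. The complex was assigned by symbol throughout. Ndufa4, known as a complex IV subunit, is thus counted among the accessory genes of complex I, and Atp5s and Atp5sl, not structural subunits, in complex V. All 77 also passed the filter for testing, which left 13281 genes in all.

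The 12 RNA-seq libraries came from KP cells, a lung adenocarcinoma line whose labelled genotype, shared by every group, is KrasLSL-G12D/+; Trp53flox/flox. Cells carried a control guide RNA (sgCTRL, called control cells here) or a CRISPR/Cas9 knockout of Bach1 (sgBACH1, called knockout cells). Each line was treated for 48 hours with siRNA, either a control (siCTRL) or one that targets Fem1b (siFEM1B), which gave 4 groups of 3 libraries. The design text calls the replicates biological; 1 control line and 1 knockout line are named, so that the knockout and any other difference between the lines cannot be told apart.

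In the respiratory chain, complexes I and II pass electrons from NADH and succinate to coenzyme Q, complex III passes them on to cytochrome c, and complex IV gives them to oxygen. Complexes I, III and IV pump protons across the inner mitochondrial membrane, and the ATP synthase (complex V) uses the returning protons to make ATP. Most subunits are encoded in the nucleus, and their promoters are known for sites of NRF1, ETS factors such as GABPA, and YY1. BACH1 is a heme-binding transcriptional repressor that has been described to hold down respiratory chain genes in breast cancer cells. FEM1B is the substrate receptor of a CUL2 ubiquitin ligase whose known substrates include FNIP1, a protein tied to mitochondrial control. The series asked how knockout or knockdown of either one alters gene programmes related to ferroptosis, an iron-dependent cell death.

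Total counts per library lay between 16539168 and 22196999, and the 77 members together took 0.932% to 1.12% of them. With control siRNA, Fem1b ranged from 136 to 167 CPM (counts scaled to a common library total), and FEM1B siRNA brought it to between 43.0 and 58.0 CPM. Bach1 mRNA was not called lower in knockout cells (log2 fold change -0.09, edgeR adjusted p = 0.344), so that the transcript does not check that label, whereas Hmox1, a gene BACH1 is known to repress, rose by 2.22 ± 0.16 (SE) on the log2 scale. Summed carcinoma markers stood at 6658 to 7756 CPM, although Nkx2-1 and Sftpc, lung lineage genes, did not reach the filter. Leukocyte markers summed to at most 0.597 CPM and endothelial markers to at most 2.14 CPM. The 5 fibroblast markers summed to 18.2 to 24.6 CPM in control cells and 8.58 to 11.2 CPM in knockout cells. The sums hide opposite moves with the knockout under control siRNA. Of the 3 tested fibroblast markers, 1 rose and 2 fell (log2 fold changes -1.42 to 2.73). Of the 5 tested carcinoma markers, 2 rose and 1 fell (-0.34 to 3.07). The part of such marker differences in the knockout results was not tested.

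Levels per kilobase of transcript, which take transcript length into account, spanned 662 ± 27.8 (SD, n = 3) for Atp5b to 3.17 ± 0.256 for Ndufb4 in control cells with control siRNA. Ndufb4 has near-identical stretches in 2 other genes, the longest of 390 bases in a transcript of 971. The part of shared reads in its low level was not tested. The 6 highest members were Atp5b and Atp5a1, which form the catalytic head of the ATP synthase, the complex IV subunits Cox4i1, Cox8a and Cox6a1, and the c-ring gene Atp5g3. Cox4i1 stood at 549.6 ± 53.2 CPM per kilobase, above Atp5a1 at 426 ± 22.8, whereas Cox8a at 376 ± 27.6 and Cox6a1 at 354 ± 4.2 lay within their spread of each other. Below Cox6a1, Atp5g3 stood at 301 ± 16.3.

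Where complex IV has tissue isoforms, the widely expressed form carried nearly all counts. Cox4i1 stood at 380.1 to 490.1 CPM over the 12 libraries, while Cox4i2, the form linked to low oxygen, never exceeded 5 counts. Cox6a1 was abundant and Cox6a2, its heart and muscle form, had at most 11 counts; for the pair Cox6b1 and Cox6b2 the second had at most 2 counts. Cox8a was likewise abundant, whereas Cox8b and Cox8c had no count in any library, which allows up to 0.134 to 0.181 CPM (3 counts). Ndufa4 stood at 126 to 179 CPM and Ndufa4l2, its hypoxia-linked relative, had at most 9 counts. Cox7b2 had at most 1 count, and these 7 low genes, all outside the 77, received no test.

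Cox7a1 was the exception among the isoforms known from muscle: it was a low member, at 6.3 ± 0.706 CPM per kilobase in control cells with control siRNA, but it passed the filter. Its widely expressed relative Cox7a2 stood at 108 ± 9.52 CPM per kilobase and Cox7a2l, which takes part in supercomplexes, at 199 ± 8.68. Among the 3 genes that encode the identical mature c subunit, Atp5g3 at 301 CPM per kilobase far exceeded Atp5g2 at 28.7 ± 6.18 and Atp5g1 at 24.2 ± 4.61, and the last pair overlapped. The longest near-identical stretch in another gene is 441 bases for Atp5g2, a transcript of 441, and 411 for Atp5g1, of 596. For Atp5g3 none was found, and the part of shared reads in this gap was not tested.

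RefSeq promoter windows (GRCm38.p6, from 250 bases before to 50 after the start) were at hand for 66 of the 77 members and for 10286 genes in all. The NRF1 motif (GCGCA, any base, GCGC), read on both strands as were all motifs, stood in 16 members (24.2%) against 10.6% of all windows. The YY1 motif AAGATGGCG stood in 7 members (10.6%) against 3.23%. The ETS motif CCGGAAGT was in 5 members (7.58%) against 8.51% of all windows. The BACH1 and NRF2 antioxidant element TGACNNNGC was in 9 (13.6%) against 14.8%, and the AP-1 motif TGACTCA, which can overlap it, in 6 (9.09%) against 3.91%. Such matches describe letters in a window and not binding.

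5 upstream stretches are shown because their genes carry the results below: Cox7a1, Ndufv3 and Uqcrh moved most in complexes IV, I and III in control cells, and Sdhd and Ndufv2 differed in their siRNA response between genotypes. Each is written 5′ to 3′ on the strand of its gene, from GRCm38.p6 in RefSeq, without bases in exons except for Sdhd, and capitals mark a motif match. They are Cox7a1 at chr7:30183921-30184143 (plus strand), Ndufv3 at chr17:31519981-31520114 (plus), Uqcrh at chr4:116075072-116075268 (minus), Ndufv2 at chr17:66101560-66101809 (minus) and Sdhd at chr9:50603909-50603938 (minus).
Cox7a1: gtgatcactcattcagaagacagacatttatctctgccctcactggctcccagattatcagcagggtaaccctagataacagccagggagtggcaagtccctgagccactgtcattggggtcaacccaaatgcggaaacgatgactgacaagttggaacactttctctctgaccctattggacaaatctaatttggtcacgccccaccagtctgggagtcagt
Ndufv3: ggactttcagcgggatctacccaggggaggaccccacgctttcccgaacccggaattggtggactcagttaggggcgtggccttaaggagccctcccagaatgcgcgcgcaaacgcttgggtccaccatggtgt
Uqcrh: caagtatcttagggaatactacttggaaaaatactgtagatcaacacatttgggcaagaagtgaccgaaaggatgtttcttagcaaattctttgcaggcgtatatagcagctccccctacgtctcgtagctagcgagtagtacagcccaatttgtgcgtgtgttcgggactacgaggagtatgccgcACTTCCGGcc
Ndufv2: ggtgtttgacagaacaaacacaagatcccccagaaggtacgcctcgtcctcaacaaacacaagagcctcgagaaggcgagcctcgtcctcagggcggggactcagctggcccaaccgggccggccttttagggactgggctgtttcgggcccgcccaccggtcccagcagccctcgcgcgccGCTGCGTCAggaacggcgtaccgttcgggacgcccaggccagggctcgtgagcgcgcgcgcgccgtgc
Sdhd: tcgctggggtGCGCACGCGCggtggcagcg
The stretches of Cox7a1 and Ndufv3 held none of the 5 motifs. The stretch of Uqcrh held the ETS motif on its opposite strand, and that of Ndufv2 the antioxidant element, also on the opposite strand. The promoter window of Uqcrh also held the AP-1 motif, outside the stretch shown. The 30 bases of Sdhd, which end 59 bases before its start, hold an NRF1 match and lie in an exon of Timm8b, the neighbouring gene on the other strand.

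With FEM1B siRNA in control cells, 35 of the 77 members rose and 3 fell (edgeR quasi-likelihood test, Benjamini-Hochberg adjusted p under 0.05), where 22.1% of all tested genes rose and 22.9% fell. The median log2 fold change of the members was 0.17 and that of all tested genes 0. Members of complexes I and IV moved most often: 17 of 36 and 7 of 12 rose, against 3 of 8 in complex III, 7 of 17 in complex V and 1 of 4 in complex II. In bulk RNA a change of this kind cannot be told apart from a change in the make-up or RNA content of the cells. The members were chosen with earlier results known, so these counts are a description beside the background and carry no test over the list. Calls were also made with a smooth trend on transcript length removed from each library, a setting described further on and chosen after the data were seen.

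The rises in complex I lay in its accessory subunits, 16 of 29 of which were called higher, rather than in the 7 core subunits that carry the flavin and iron-sulfur clusters, of which only Ndufv2 rose and Ndufv1 fell. Whether the accessory and core subunits differ was not tested. Ndufv3, an accessory subunit beside the flavin site (chromosome 17, 31520115 to 31531326), stood at 94.9, 91.3 and 90.4 CPM with control siRNA and at 134, 132 and 172 CPM with FEM1B siRNA. All libraries with FEM1B siRNA lay above all those without. Its log2 fold change was 0.66 ± 0.08 (SE, adjusted p = 2.17e-06), a 1.58-fold difference. Ndufb7 (0.47 ± 0.09), Ndufb10 (0.46 ± 0.06), Ndufc1 (0.45 ± 0.12) and Ndufa3 (0.44 ± 0.08), accessory subunits of the membrane arm, followed on the log2 scale. Ndufv1, the flavin-binding core subunit, stood at 182, 173 and 170.4 CPM without and 158, 151 and 157 CPM with FEM1B siRNA, and it fell by 0.18 ± 0.05 (adjusted p = 0.0109), a call lost without the first control library.

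**Figure D1:**
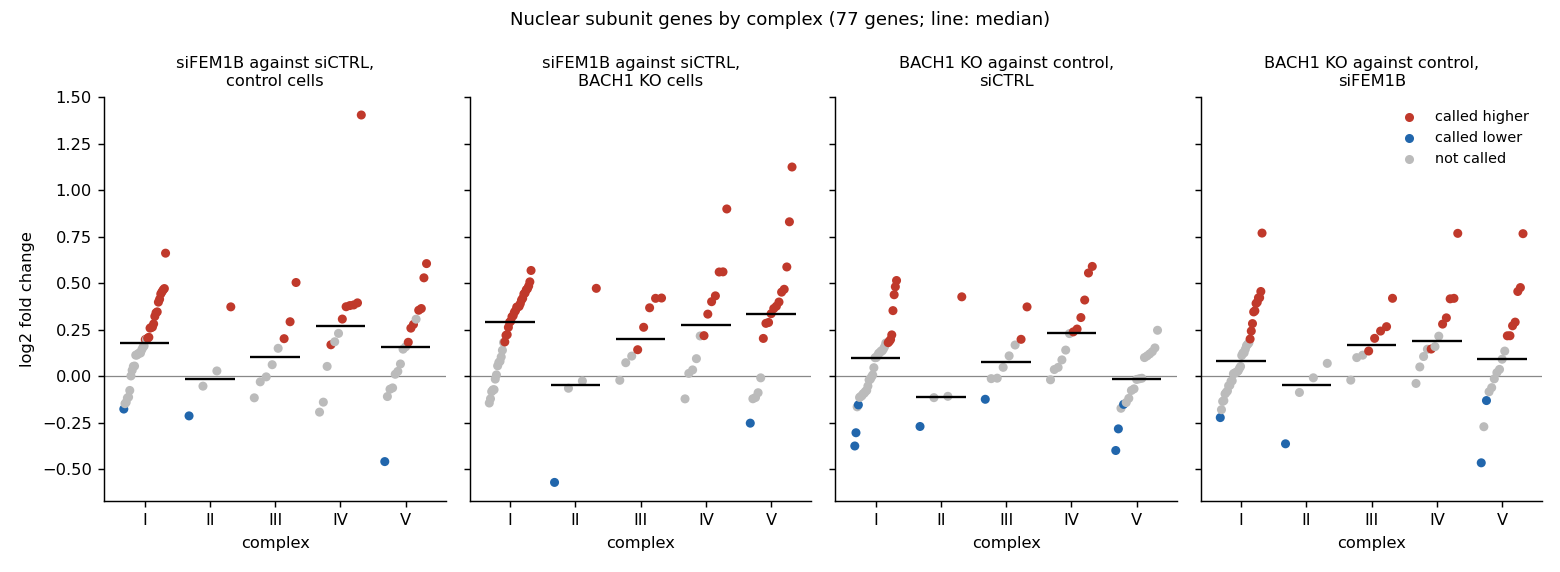
Log2 fold change of each of the 77 members (points; y axis) by complex, with FEM1B siRNA in control and knockout cells and with the knockout under each siRNA; red points were called higher, blue points lower and grey points were not called at an adjusted p of 0.05, and black lines are the medians of each complex. Complex I, III, IV and V genes sit mostly above 0 with FEM1B siRNA, with member medians of 0.17 in control cells and 0.29 in knockout cells.

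The subunits of complex II, succinate dehydrogenase, did not move together. Sdhc, 1 of its 2 membrane anchors, stood at 105, 102 and 97.1 CPM with control siRNA and at 127, 124 and 144 CPM with FEM1B siRNA, with no overlap (0.37 ± 0.06, adjusted p = 4.07e-05). Sdhd, the other anchor, fell by 0.21 ± 0.07 (adjusted p = 0.0118), from 90.4, 76.0 and 77.3 CPM to 70.6, 70.3 and 69.6 CPM. The groups did not overlap, but the fall was not called without the first control library (adjusted p = 0.105). The catalytic subunits Sdha and Sdhb gave -0.05 and 0.03 and were not called.

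In complex III the rises were in small subunits. Uqcrh, the hinge protein at the cytochrome c1 site whose upstream stretch is shown above, stood at 103, 100.1 and 96.6 CPM with control siRNA and at 133, 132 and 161 CPM with FEM1B siRNA. These groups did not overlap, and the log2 fold change was 0.50 ± 0.07 (adjusted p = 6.14e-06). Uqcr11 gave 0.29 ± 0.08 and Uqcr10 0.20 ± 0.08 (adjusted p = 0.0392), the latter with overlapping libraries. Both calls were lost with the length trend removed, and that of Uqcr10 also without the second or the third control library, without the third FEM1B library and with only the libraries compared. The large core proteins gave 0.06 for Uqcrc1 and -0.03 for Uqcrc2, and the Rieske iron-sulfur protein Uqcrfs1 gave 0.00; none of the 3 was called.

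Cox7a1 (chromosome 7, 30184171 to 30186030) had the largest rise of all members. It stood at 2.64, 2.64 and 2.16 CPM with control siRNA and at 5.58, 6.34 and 7.92 CPM with FEM1B siRNA in control cells. Every library with FEM1B siRNA was more than 5 CPM and every one without was below 3 CPM. The log2 fold change was 1.40 ± 0.18 (adjusted p = 3.03e-06), 2.65-fold, and stayed between 1.20 and 1.52 in the alternative settings. Its widely expressed relative Cox7a2 gave 0.40 ± 0.08 (adjusted p = 0.000544) and Cox7a2l 0.05, which was not called.

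Other complex IV subunits rose by less. Cox6a1 went from 205, 200.4 and 202 CPM to 245, 249 and 297 CPM (0.38 ± 0.06, adjusted p = 6.23e-05). Cox8a went from 224, 197 and 198 CPM to 253, 254 and 303 CPM (0.38 ± 0.07, adjusted p = 0.000122). Cox6b1, at the cytochrome c side, went from 100.2, 86.7 and 90.7 CPM to 117, 111 and 132 CPM (0.37 ± 0.07). In each of these the third library with FEM1B siRNA was the highest and the groups did not overlap. Cox7b also rose (0.31 ± 0.07), while Cox4i1 was called at 0.17 ± 0.06 (adjusted p = 0.0382) with overlapping libraries and lost its call in 7 of 20 other settings. Ndufa4, which carries a complex I name and is known as a complex IV subunit, rose by 0.27 ± 0.06.

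In the ATP synthase, the membrane subunits Atp5j2, Atp5k and Atp5l all rose, by 0.28 ± 0.07, 0.53 ± 0.08 and 0.61 ± 0.22. For Atp5l the libraries overlapped (4.18, 2.17 and 2.31 against 4.15, 3.9 and 5.26 CPM), and the call was lost without the second or the third control library or the third library with FEM1B siRNA, and with the length trend removed. Of the 5 head subunits, Atp5d (0.26 ± 0.06) and Atp5e (0.36 ± 0.08) rose, whereas Atp5a1 (-0.07), Atp5b (-0.11) and Atp5c1 (-0.06) were not called. Atp5j of the peripheral stalk gave 0.36 ± 0.07. Atp5sl, which bears the name and is not a structural subunit, fell by 0.46 ± 0.13 (adjusted p = 0.00823), from 19, 14.8 and 13.6 CPM to 10.8, 13.5 and 10.4 CPM. It lost its call without the first control library (adjusted p = 0.0787).

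In knockout cells FEM1B siRNA raised more members: 48 rose and 2 fell, where 21.9% of all tested genes rose and 19.8% fell. The members' median log2 fold change was 0.29 against 0.02 for all tested genes. Complex V moved most often, with 12 of 17 called higher and a median of 0.34. In complex I 23 of 36 rose, in complex III 5 of 8, in complex IV 7 of 12 and in complex II 1 of 4. The libraries of the compared groups did not overlap for 54 of the 77 members, against 51.5% of all tested genes.

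Both genotypes were compared within their own controls and shared no library. 31 members rose in both, which is 88.6% of the 35 called higher in control cells and 64.6% of the 48 called higher in knockout cells. Over all tested genes 1817 rose in both, 61.8% and 62.3% of the respective lists. The 31 included Cox7a1, Ndufv3, Uqcrh, Sdhc, Cox8a, Cox6a1, Cox7a2, Ndufb10 and Atp5e. Only the interaction test below bears on whether the 17 members called in knockout cells alone or the 4 called in control cells alone differ between genotypes.

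Atp5l gave the largest rise in knockout cells, from 3.58, 3.44 and 3.33 CPM to 7.66, 6.21 and 8.75 CPM, with no overlap (1.13 ± 0.21, adjusted p = 0.000231). The low counts of this gene are uncertain, since 10 other genes hold a stretch nearly identical to it. Cox7a1 went from 3.47, 3.44 and 4.02 CPM to 6.35, 7.88 and 6.22 CPM (0.90 ± 0.17, adjusted p = 0.000282), again without overlap. Ndufv3 went from 127, 139 and 129 CPM to 184, 212 and 189.8 CPM (0.57 ± 0.08, adjusted p = 1.25e-05). For Atp5l and Ndufv3 these 3 libraries were the highest of the 12. Uqcr10 went from 59.8, 64.4 and 65.0 CPM to 79.1, 87.8 and 86.7 CPM (0.42 ± 0.08, adjusted p = 0.000212), a call lost with the length trend removed. Sdhc went from 91.6, 96.1 and 94.9 CPM to 132, 128 and 132 CPM (0.47 ± 0.06, adjusted p = 3.67e-06). Uqcrh (0.42 ± 0.07), Cox8a and Cox6a1 (each 0.56), and Ndufa4 (0.44 ± 0.06) also rose.

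The c-ring genes separated. Atp5g1 in knockout cells stood at 13.4, 14.1 and 13.9 CPM under control siRNA and at 27.1, 21.1 and 25.4 CPM under FEM1B siRNA, 1.78-fold higher (0.83 ± 0.13, adjusted p = 4.22e-05). Atp5g3, the c-ring gene with the most counts, went from 206, 217 and 215 CPM to 300.4, 285 and 297 CPM (0.47 ± 0.06, adjusted p = 4.31e-06). Atp5g2 stood at 7.95, 12.1 and 13.5 CPM and then at 10.3, 11.4 and 10.0 CPM, overlapping and not called. In control cells Atp5g1 (0.31, adjusted p = 0.0638) was not called and Atp5g3 gave 0.18 ± 0.06 (adjusted p = 0.0173), a call lost without the second control library, without the third FEM1B library and with the length trend removed. The 4 peripheral stalk genes were called higher in knockout cells: Atp5h (0.45 ± 0.09), Atp5j (0.40 ± 0.07), Atp5o (0.29 ± 0.07, not called with the length trend removed) and Atp5f1 (0.20 ± 0.05). Atp5a1 fell by 0.25 ± 0.05 (adjusted p = 0.000377), from 871, 873 and 857 CPM to 729, 752 and 704 CPM, with no overlap.

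**Figure D2:**
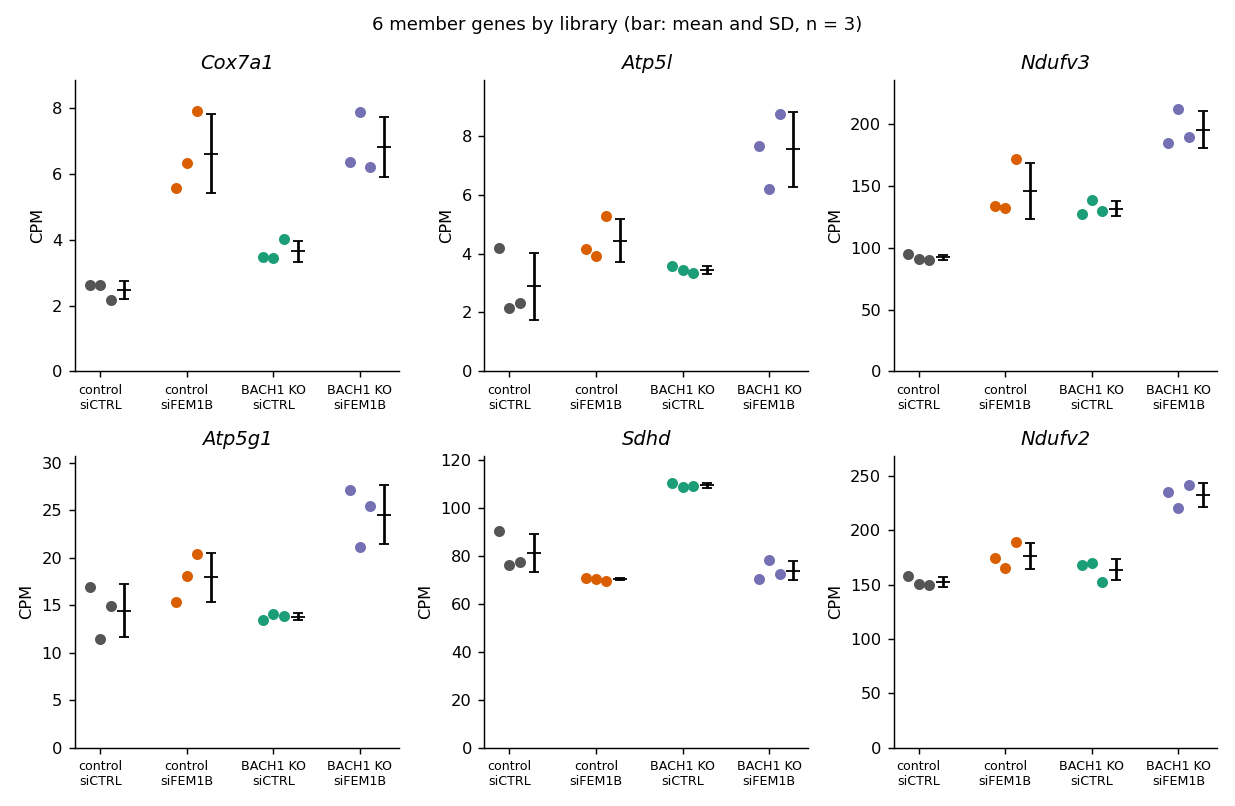
CPM of 6 members in each of the 12 libraries (points; y axis from 0) by group, with bars for the group mean and SD (n = 3). Cox7a1 and Ndufv3 are higher with FEM1B siRNA in both genotypes, Atp5l and Atp5g1 are highest in knockout cells with FEM1B siRNA, and Sdhd is highest in knockout cells with control siRNA.

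The interaction test asks whether the response to FEM1B siRNA differed between genotypes (knockout minus control). It called 1 member higher, Ndufv2, and 1 lower, Sdhd, where 3.48% and 2.6% of all tested genes were called. Sdhd (chromosome 9, 50596340 to 50603849) in knockout cells stood at 110.4, 109 and 109 CPM under control siRNA and at 70.5, 78.1 and 72.4 CPM under FEM1B siRNA. It thus lay above every other library in the first of these groups and within the range of control cells in the second. The fall with FEM1B siRNA was 0.57 ± 0.06 on the log2 scale in knockout cells (adjusted p = 1.05e-06) and the difference between genotypes was -0.36 ± 0.09 (adjusted p = 0.0277). Ndufv2, a core subunit with an iron-sulfur cluster (chromosome 17, 66078795 to 66101559), in knockout cells stood at 168, 169.9 and 153 CPM under control siRNA and at 235, 221 and 242 CPM under FEM1B siRNA. In control cells it stood at 158, 150.3 and 149 CPM and then at 175, 166 and 189 CPM. Its rise was 0.51 ± 0.06 in knockout and 0.21 ± 0.06 in control cells, a difference of 0.30 ± 0.08 (adjusted p = 0.0395). In other settings the adjusted p of the interaction ran from 0.00408 to 0.0867 for Sdhd and from 0.0114 to 0.132 for Ndufv2. The call was lost in 7 of 19 such settings for Sdhd and in 11 of 19 for Ndufv2.

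Summed over each complex, the CPM of complex IV stood at 1543 ± 98.9 in control cells with control siRNA, 1816 ± 163 with FEM1B siRNA, 1779 ± 79.8 in knockout cells with control siRNA and 2207 ± 35.3 with both. The 3 libraries with knockout and FEM1B siRNA together were the highest of the 12 for complexes I, III and IV. Complex I went from 2866 ± 129 to 3172 ± 267 CPM in control cells and from 3046 ± 147 to 3570 ± 56.6 CPM in knockout cells. Complex III went from 927 ± 25.0 to 988 ± 58.5 CPM and from 1009 ± 29.7 to 1134 ± 11.0 CPM. Complex V, dominated by Atp5a1 and Atp5b, showed another order: 3783 ± 173 and 3811 ± 112 CPM in control cells and 3478 ± 98.3 and 3564 ± 32.9 CPM in knockout cells. Complex II kept to 482.8 to 555 CPM in all libraries. Sums weight the abundant genes and were not tested.

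**Figure D3:**
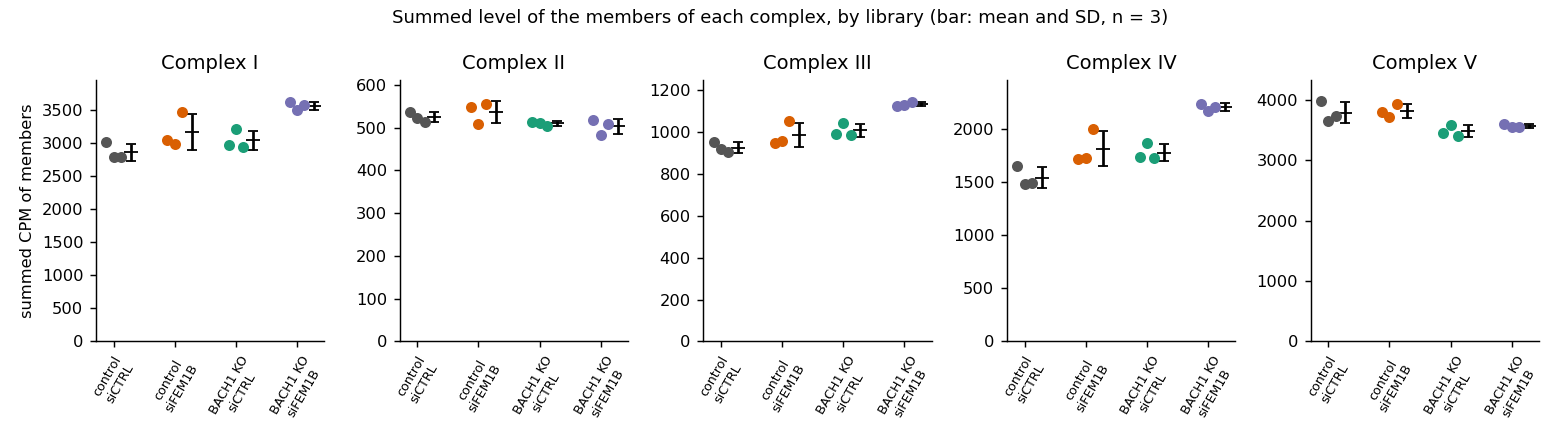
Summed CPM of the members of each complex in each library (points; y axis from 0) by group, with bars for the mean and SD (n = 3). Complexes I, III and IV are highest in knockout cells with FEM1B siRNA, complex V is highest in control cells, and complex II stays between 482.8 and 555 CPM.

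The members are mostly short: 49 have a principal transcript (GENCODE) under 1000 bases. Of these, 27 rose with FEM1B siRNA in control cells and 35 in knockout cells, where 33.1% and 43.8% of the 827 tested genes of that length rose. Of the 28 longer members, 8 and 13 rose, where 22.3% and 21.2% of all longer tested genes did. Medians for the short members were 0.23 and 0.34, against 0.15 and 0.25 for all short genes. Across the 77 members length and log2 fold change gave Spearman's rho of -0.395 in control and -0.299 in knockout cells, against -0.122 and -0.280 across 12205 genes, all measured in the same libraries. The longer ones called higher in both genotypes included Sdhc (3171 bases), Ndufv2 (1697) and Ndufv3 (1582).

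Library by library, the short members stood 0.14, 0.14 and 0.40 above the mean of the control libraries (median log2 difference) in control cells with FEM1B siRNA. All other short genes stood 0.06, 0.08 and 0.27 above it, so the third library was high for both. In knockout cells with FEM1B siRNA the short members stood 0.46, 0.41 and 0.45 above and the other short genes 0.32, 0.29 and 0.30. Without the third FEM1B library, 27 members were called higher in control cells, all among the 35. With the length trend removed, 27 members rose and 7 fell in control cells and 29 rose and 13 fell in knockout cells, where 25.8% and 22.7% of all genes rose and 21.4% and 19.9% fell. All of those called higher were also called without the correction. The 8 calls lost in control cells were Atp5g3 (0.06, adjusted p = 0.311), Atp5l (0.45, 0.075), Cox4i1 (0.06, 0.313), Ndufa1 (0.08, 0.319), Ndufb9 (0.08, 0.206), Ndufs6 (0.11, 0.262), Uqcr10 (0.01, 0.949) and Uqcr11 (0.10, 0.208). The 19 lost in knockout cells included Atp5k (0.01, adjusted p = 0.896), Atp5o (0.09, 0.126), Uqcr10 (0.12, 0.107), Ndufa3 (0.15, 0.0727), Cox7a2l (0.07, 0.176) and Ndufs8 (0.13, 0.0516). For the knockout this setting called 12 members higher and 17 lower under control siRNA (26.4% and 25.9% of all genes) and 15 and 21 under FEM1B siRNA (27.4% and 27.8%). The interaction then called 1 member higher and 5 lower (3.36% and 4.39%). The part of transcript length in the members' rise beyond this was not tested.

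**Figure D4:**
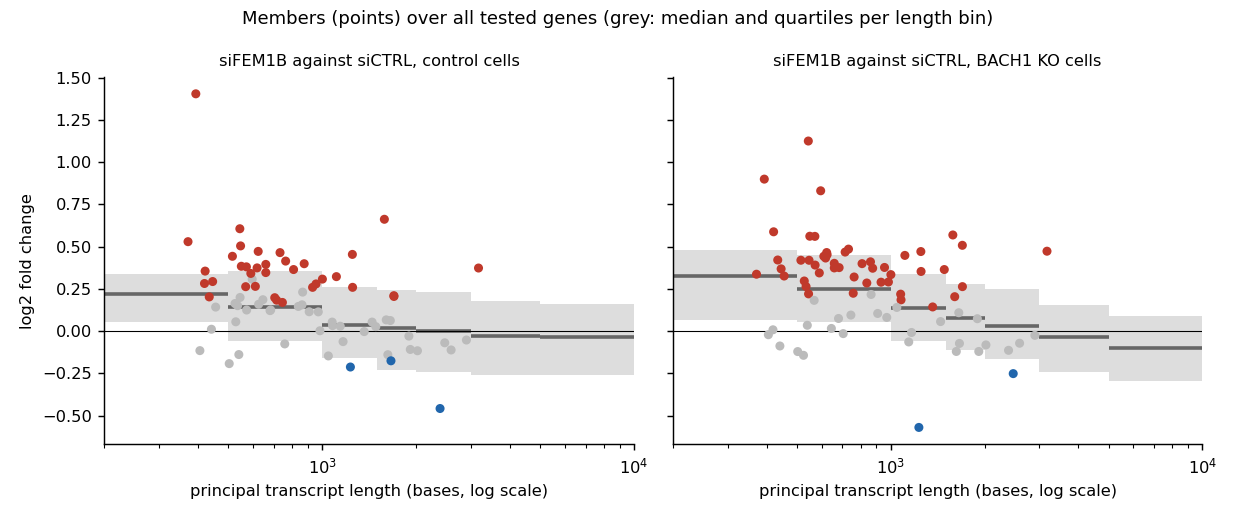
Log2 fold change with FEM1B siRNA (y axis) against transcript length in bases (log x axis) in control and knockout cells; points are the 77 members (red called higher, blue lower, grey not called) and the dark line and grey band are the median and quartiles of all tested genes in bins of length. Short members lie mostly above the line, and the line itself is above 0 for transcripts under 1000 bases.

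BACH1 knockout under control siRNA moved fewer members: 17 rose and 8 fell, where 24.2% of all tested genes rose and 26.3% fell, so the members' shares (17 and 8 of 77) lay below the background. The median log2 fold change was 0.09, against -0.02 for all genes. This comparison shares its control libraries with that of FEM1B siRNA in control cells. In complex IV 6 of 12 rose, in complex I 8 of 36, in complex III 2 of 8 and in complex II 1 of 4, while in complex V 3 of 17 fell. The largest rises were those of Cox8a and Cox7a1.

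Cox8a, a small subunit of complex IV (chromosome 19, 7215158 to 7217616), stood at 224, 197 and 198 CPM in control cells and at 304, 329 and 301 CPM in knockout cells. The groups did not overlap, and the difference was 1.51-fold (0.59 ± 0.07, adjusted p = 4.6e-07). Cox7a1 rose by 0.56 ± 0.19 (adjusted p = 0.0198), from 2.64, 2.64 and 2.16 CPM to 3.47, 3.44 and 4.02 CPM. It lost the call without the third control or the third knockout library, and with the length trend removed (0.41, adjusted p = 0.0617). Ndufv3 rose by 0.52 ± 0.08 (adjusted p = 2.72e-05), from at most 94.9 CPM to at least 127 CPM. Ndufs8, a core iron-sulfur subunit, went from 114, 106 and 111 CPM to 151, 159.6 and 151 CPM (0.48 ± 0.07, adjusted p = 1.48e-05). Sdhd gave 0.43 ± 0.06 (adjusted p = 1.42e-05), Cox7a2 0.41 ± 0.08 and Uqcrc1 0.37 ± 0.06, the last from 254, 233 and 222 CPM to 290.1, 324 and 303 CPM. Uqcrh gave 0.20 ± 0.07 (adjusted p = 0.0196) and lost the call without the third control or the second knockout library, and with the length trend removed (0.07, adjusted p = 0.23).

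Falls were called in complexes I, II, III and V. Atp5a1, the catalytic head's alpha subunit, went from 1119, 1025 and 1018 CPM to 871, 873 and 857 CPM and fell by 0.28 ± 0.05 (adjusted p = 7.49e-05). Sdhb, the iron-sulfur subunit of complex II, went from 110.0, 101 and 100.5 CPM to 86.7, 87.4 and 84.6 CPM and fell by 0.27 ± 0.06 (adjusted p = 0.0011). Ndufb5 of the complex I membrane arm fell by 0.37 ± 0.07 (adjusted p = 0.000255), from 87.4, 76.7 and 77.1 CPM to 64.5, 64.9 and 56.9 CPM. None of these groups overlapped. Atp5s, which is not a structural subunit, fell by 0.40 ± 0.10 (adjusted p = 0.00351), from 16.7, 16.6 and 16.6 CPM to 11, 13.2 and 13.7 CPM. Uqcrc2 went from 201, 211 and 199 CPM to 193, 189 and 179 CPM and fell by 0.12 ± 0.05 (adjusted p = 0.045), a call lost in 15 of 21 other settings.

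Under FEM1B siRNA the knockout raised 29 members and lowered 4, where 28.2% of all tested genes rose and 26.4% fell. The median was 0.13 against 0.01. In complex I 11 of 36 rose, in complex III 5 of 8, in complex IV 6 of 12 and in complex V 7 of 17. The core subunits of complex I moved here more often than the accessory ones, 5 of 7 against 6 of 29, a difference that was not tested. 12 members rose with the knockout under both siRNAs, 70.6% of the 17 and 41.4% of the 29, among them Cox8a, Ndufs8, Ndufv1, Ndufv3, Cox6a1 and Uqcrc1. Over all tested genes 2476 rose under both, of 3210 called higher under control siRNA and 3741 under FEM1B siRNA. The members' shares lay below those of all genes.

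Ndufs8 stood at 101, 102 and 129 CPM in control cells and at 188, 182 and 195 CPM in knockout cells with FEM1B siRNA, 1.71-fold higher (0.77 ± 0.07, adjusted p = 2.97e-08). Cox8a gave 0.77 ± 0.07 (adjusted p = 1.06e-08), from 253, 254 and 303 CPM to 467, 446 and 466 CPM. Atp5a1 fell by 0.46 ± 0.05 (adjusted p = 1.44e-07), from 1025, 988 and 1002 CPM to 729, 752 and 704 CPM. The libraries of the groups compared did not overlap for any of these 3 genes. Uqcrc1 went from 245, 239 and 256 CPM to 331, 326 and 332 CPM (0.42 ± 0.06, adjusted p = 3.22e-06). Sdhb went from 111, 99.9 and 107 CPM to 87.3, 76.6 and 83.4 CPM and fell by 0.36 ± 0.06. Ndufb5 went from 78.9, 77.4 and 90.8 CPM to 72.3, 69.1 and 70.2 CPM and fell by 0.22 ± 0.07 (adjusted p = 0.0145), a call lost without the third control library with FEM1B siRNA. Again no groups overlapped. Ndufv1 (0.46 ± 0.05), Ndufv3 (0.42 ± 0.08) and Ndufv2 (0.40 ± 0.06) also rose, and Atp5l gave 0.77 ± 0.20 and Atp5sl 0.48 ± 0.13. Cox7a1 (0.05) and Sdhd (0.07), both called under control siRNA, were not called here.

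The knockout results moved with the chromosome. Under control siRNA the median log2 fold change of all tested genes was 0.44 on chromosome 19, where 69.5% of genes rose, and 0.27 on chromosome 9, where 55.3% rose. 9 members lie on these chromosomes: Cox8a, Ndufs8, Ndufv1 and Ndufb8 on chromosome 19 and Sdhd, Uqcrc1, Cox7a2, Cox5a and Atp5l on chromosome 9. 8 of the 9 rose, all but Atp5l, against 9 of the 68 members elsewhere, of which 8 fell. Under FEM1B siRNA 7 of the 9 rose, against 22 of the 68 elsewhere. There 68.9% of the tested genes on chromosome 19, 55.2% of those on chromosome 9 and 28.2% of all tested genes rose. FEM1B siRNA left both chromosomes near 0, with medians between -0.00048 and 0.03.

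With each chromosome's median removed, the knockout under control siRNA called 11 members higher and 4 lower, where 22.2% and 21.4% of all genes were called, and 7 of the 11 were among the 17. Ndufv3 (0.43, adjusted p = 0.000233) and Cox6a1 (0.28, adjusted p = 0.00117), on chromosomes 17 and 5, remained called. The 8 on chromosomes 9 and 19 lost their calls (adjusted p in parentheses): Cox8a gave 0.15 (0.0852), Sdhd 0.15 (0.0585), Cox7a2 0.14 (0.185), Uqcrc1 0.10 (0.161), Ndufs8 0.04 (0.704), Cox5a 0.04 (0.794), Ndufb8 -0.01 (0.967) and Ndufv1 -0.09 (0.177). Atp5a1 gave -0.11 (adjusted p = 0.0859) and Atp5s, on chromosome 12, -0.12 (adjusted p = 0.366), and neither was called, whereas Sdhb (-0.23, adjusted p = 0.00457) and Ndufb5 (-0.23, adjusted p = 0.0147) stayed called lower. Under FEM1B siRNA 24 members were then called higher and 5 lower, where 24.7% and 25.2% of all genes were called, and 19 of the 24 were among the 29. The calls lost included Ndufv1 (0.01, adjusted p = 0.848), Uqcrc1 (0.13, adjusted p = 0.0615), Cox7a2 (0.13, adjusted p = 0.2), Atp5l (0.48, adjusted p = 0.0565) and the fall of Ndufb5 (-0.09, adjusted p = 0.306). Sdhd (-0.22, adjusted p = 0.00895) and Ndufa5 (-0.20, adjusted p = 0.0379), not called under FEM1B siRNA without this step, were then called lower. The part of gene dosage or of any other difference between the lines in these values was not tested.

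**Figure D5:**
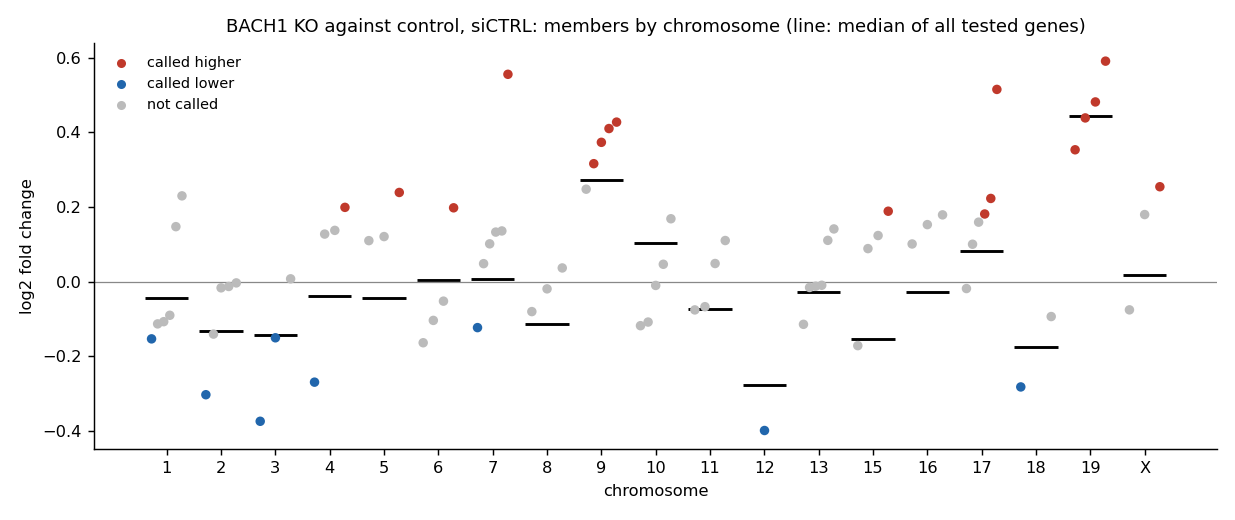
Log2 fold change with BACH1 knockout under control siRNA (y axis) by chromosome (x axis); points are the members (red called higher, blue lower, grey not called) and black lines the median of all tested genes on that chromosome. Chromosomes 19 and 9 stand highest, at 0.44 and 0.27, and all 9 members on them lie above 0.

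Related genes outside the symbol rule give the surroundings. Of 5 further genes of the complexes, 2 rose with FEM1B siRNA in control cells and 3 in knockout cells, where 22.1% and 21.9% of all tested genes rose. Atpif1, the ATP synthase inhibitor (0.20 and 0.42), and 2010107E04Rik (0.20 and 0.53) rose in both. Usmg5, a small ATP synthase subunit, rose in knockout cells (0.27). Cyc1, a heme-carrying subunit of complex III, gave 0.12 and 0.13, not called, and fell by 0.20 ± 0.07 with the knockout under control siRNA (adjusted p = 0.0175). Subunits encoded by the mitochondrial genome were not analysed here.

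Assembly factors moved in both directions, beside backgrounds of 22.1% higher and 22.9% lower in control cells and 21.9% and 19.8% in knockout cells. Of 15 for complex I, 2 rose and 5 fell with FEM1B siRNA in control cells and 1 rose and 5 fell in knockout cells. Acad9 gave -0.32 and -0.35, Timmdc1 -0.51 and -0.40 and Nubpl, which delivers iron-sulfur clusters, -0.66 and -0.67, all called lower, while Ndufaf3 rose by 0.36 and 0.67. Of 20 for complex IV, 6 rose and 6 fell in control cells and 8 rose and 2 fell in knockout cells. Lrpprc, which stabilises mitochondrial mRNAs, fell by 0.71 ± 0.06 and 0.44 ± 0.06. Of 13 for complexes II, III and V, 2 rose and 5 fell, then 3 rose and 4 fell. Tmem70, an ATP synthase assembly factor, fell by 0.84 ± 0.07 and 0.73 ± 0.08 (adjusted p = 3.84e-08 and 3.38e-07).

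Of 13 tested regulators of respiratory genes, 2 rose and 7 fell with FEM1B siRNA in control cells and 2 rose and 5 fell in knockout cells. Pprc1, a coactivator related to PGC-1alpha, fell by 0.69 ± 0.08 and 0.52 ± 0.08. Tfam, which packages mitochondrial DNA and takes part in its transcription, fell by 0.53 ± 0.06 and 0.37 ± 0.06. Myc fell by 0.60 ± 0.07 and 0.20 ± 0.07 and Gabpa by 0.18 ± 0.06 and 0.37 ± 0.06. Ppargc1a, which encodes PGC-1alpha, gave -0.01 in control cells and 0.49 ± 0.15 in knockout cells, and fell by 1.06 ± 0.14 with the knockout under control siRNA (adjusted p = 3.38e-06). Esrra, a nuclear receptor that works with it and lies in the same list, rose by 0.62 ± 0.06 with the knockout under control siRNA. No value with chromosome medians removed is given for these regulators. The part of the chromosome shifts in their knockout values was not tested.

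Other sets were counted in the same way. Of 77 mitochondrial ribosomal proteins, 12 rose and 15 fell with FEM1B siRNA in control cells and 18 rose and 7 fell in knockout cells. Of 76 cytosolic ribosomal proteins, which are short like the subunits, 8 rose and 8 fell and then 20 rose and 5 fell, while the knockout raised 39 of them under control siRNA and 51 under FEM1B siRNA (24.2% and 28.2% of all tested genes). Of 16 genes of the TCA cycle and pyruvate dehydrogenase, 8 fell in control cells, and in knockout cells 1 rose and 4 fell. Idh3a fell by 0.56 ± 0.05 and 0.46 ± 0.05 and Pdha1 by 0.30 ± 0.05 and 0.27 ± 0.05. Of 14 genes of coenzyme Q synthesis and cytochrome c, 3 fell in control cells, and 2 rose and 1 fell in knockout cells. Of 8 tested genes of mitochondrial remodelling in hypoxia, 5 rose and 2 fell, then 1 rose and 3 fell. The background shares for FEM1B siRNA are those given for the assembly factors, and no set was tested against another.

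Some member values rest on counts that near-identical or overlapping genes could share. 24 members have a stretch of at least 100 bases that is at least 95% identical in another gene, and 16 overlap another gene's exons by at least 100 bases. Of the 41 with neither, 21 rose with FEM1B siRNA in control cells and 29 in knockout cells, and Cox7a1, Ndufv3, Uqcrh, Sdhc, Sdhd, Cox8a and Ndufs8 are among them. Of the 24 with a near-identical stretch, which include Atp5l, Atp5g1 and Atp5g2, 9 and 14 rose. Beside these counts, 22.1% and 21.9% of all tested genes rose, and 33.1% and 43.8% of those under 1000 bases. Whether shared counts affect the rises was not tested.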

How the data were processed

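Poly(A) RNA of 12 libraries was sequenced from stranded libraries, per the labels' protocols. The authors deposited raw counts, whole numbers for each gene symbol. According to the submitters' processing notes, mm10 and the tools featureCounts 1.6.4, Subread, DESeq2 1.26.0 and SAMtools 1.9 were used. How strand was treated in counting, and which annotation was used, is not given in the sources used here.

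From these counts, the edgeR function filterByExpr (minimum count 10) chose the genes tested, and TMM factors scaled the libraries. 1 count was worth 0.0446 to 0.0604 CPM. The test was the two-sided quasi-likelihood test of edgeR 4.0.16 (R 4.3.3), with 1 mean per group over all 12 libraries, 8 residual degrees of freedom and n = 3 per group. The threshold was a Benjamini-Hochberg adjusted p of 0.05 over all genes tested. Standard errors were obtained from the fold change and its F statistic. The p-values measure the spread between these libraries. Replicate pairs differed beyond counting error (chi-square per degree of freedom 2.50 to 13.7). Bounds cover counting error only.

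Lengths were from GENCODE, positions and promoters from RefSeq (GRCm38.p6). Near-identical stretches were found with blastn 2.17.0. The test was checked on simulated data. The members and lists were chosen with earlier results of these data known. The rule for named genes asked for values by library for the largest rise and fall per complex and contrast, the members called in the interaction, and the isoform sets; some isoforms are given by range or group mean. Alternatives were DESeq2 1.42.0, other scalings and filters, a replicate block, removed chromosome or length trends, a fold minimum, and leaving out each library.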

Additional observations from a re-analysis of the deposited data

Results flagged for a closer look

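Sdhd and Ndufv2 were singled out because their response to FEM1B siRNA differed between genotypes by the interaction test. For Sdhd the difference (knockout minus control) was -0.36 on the log2 scale (edgeR adjusted p = 0.0277). Sdhd was lower with FEM1B siRNA in 3 of 3 libraries of each genotype. For Ndufv2 the difference was 0.30 (edgeR adjusted p = 0.0395), and Ndufv2 was higher with FEM1B siRNA in 3 of 3 libraries of each genotype. They are 2 of the 77 members, where 3.48% and 2.6% of all tested genes were called higher and lower. Of 19 other settings, 7 lost the interaction call of Sdhd and 11 that of Ndufv2.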

How the results depend on the processing

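Counts of members called, given as higher then lower, were 17 and 8 for the knockout under control siRNA, 29 and 4 under FEM1B siRNA, 35 and 3 for FEM1B siRNA in control cells, 48 and 2 in knockout cells, and 1 and 1 for the interaction. They moved by over 1.5 times in the following settings. DESeq2's size factors gave 0 higher in the interaction (edgeR; 11 at an unadjusted p under 0.05), DESeq2 itself 2 and 2, and no filter on low counts 4 higher. Upper-quartile factors gave 5 lower for the knockout under control siRNA, and fitting only the libraries compared gave 26 higher. No filter gave 5 lower for FEM1B siRNA in control cells. A log2 fold minimum of 0.26 left 10 higher and 5 lower for the knockout, 2 lower under FEM1B siRNA, and 1 lower with FEM1B siRNA in each genotype. Removing chromosome medians gave 11 and 4 for the knockout and turned the value of Ndufv1 in that comparison (BACH1 knockout against control under control siRNA) to -0.090. Removing the length trend gave 17 lower for the knockout and 15 and 21 under FEM1B siRNA. It gave 7 lower for FEM1B siRNA in control cells, 29 and 13 in knockout cells, and 5 lower in the interaction, and turned Cox7a2l under FEM1B siRNA to -0.0026. The causes of these moves were not tested. Leaving out 1 library gave 13 to 21 higher and 5 to 9 lower for the knockout under control siRNA and 22 to 39 and 3 to 4 under FEM1B siRNA. For FEM1B siRNA it gave 26 to 39 and 0 to 5 in control cells (0 without the first control library, 5 without the first FEM1B library) and 42 to 50 and 2 to 3 in knockout cells. For the interaction it gave 0 to 7 (7 without the third FEM1B library of control cells) and 0 to 2, with 7 to 20 and 2 to 6 at an unadjusted p under 0.05. Labels number the replicates, but same-numbered libraries did not deviate together (r from -0.115 to 0.079; 1 of 12 libraries matched its own number best). The replicate block gave 16 and 6, 28 and 4, 34 and 3, and 46 and 2 for the pairwise comparisons, and 0 higher in the interaction (12 at an unadjusted p under 0.05).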
